A study of Mus musculus with 4 samples.

Results

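Lipid droplets store triglyceride and cholesteryl ester inside the hepatocyte, and the proteins on their surface set how fast that store is formed and broken down. The genes described here encode 8 of those proteins in mouse liver: the perilipins Plin2, Plin3, Plin4 and Plin5, the CIDE proteins Cidea, Cideb and Cidec, and the lipase inhibitor G0s2. They were chosen by name, as every non-control probe whose gene name on the array is 1 of these 8, which took 10 of 39429 probes and 8 of 30026 genes. Plin1, the perilipin of the fat cell, was not among them. Cideb and Cidec had 2 probes each and the other 6 genes had 1.

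Liver RNA of Pnpla7-/- mice (KO) and of wild-type mice (WT), both C57BL/6N, was measured at 6 and at 3 weeks of age on 1-colour Agilent mouse gene expression arrays. Pnpla7 encodes a lysophospholipase of the patatin-like family. The 4 groups were KO at 6 weeks, WT at 6 weeks, KO at 3 weeks and WT at 3 weeks, and each was a single array holding RNA pooled from 5 livers, all on 1 slide. No group had a second array, so no ratio between 2 arrays has a replicate check, and the spread between mice is not measured. The sex of the mice, the time of day, the feeding state and the part of Pnpla7 that was deleted are not given in the sources used here.

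Perilipins coat the droplet and hold lipases away from it or recruit them. Plin2 is the main coat of droplets in the fat-loaded hepatocyte, and its protein is degraded when it has no droplet to bind. Plin5 is abundant in oxidative tissues and links droplets to mitochondria, Plin3 moves from the cytosol to newly formed droplets, and Plin4 is best known from white fat and muscle. CIDE proteins act where droplets touch: Cidea and Cidec move lipid from small into large droplets and appear in fatty liver, while Cideb is the form of the normal hepatocyte and takes part in loading very low density lipoprotein with lipid. G0s2 binds and inhibits adipose triglyceride lipase, the enzyme encoded by Pnpla2 that takes the first step of droplet lipolysis.

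In the 6-week livers the Plin4 signal was 2.62-fold higher and the G0s2 signal 2.06-fold lower in KO than in WT, and the Plin2 signal was 1.97-fold lower, just inside 2-fold. Plin3, Plin5, Cideb and Cidec had log2 KO over WT ratios between -0.20 and 0.31. In the 3-week livers Cidea was the 1 member at least 2-fold apart, lower in KO. For Plin2 and Plin4, 3 of the 4 arrays lay close together and the WT array of 6 weeks stood apart, above the others for Plin2 and below them for Plin4. For G0s2 the array that stood apart was KO at 6 weeks, and for Cidea WT at 3 weeks was the highest, with KO at 3 weeks also above both 6-week arrays.

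The promoters of the 4 genes with the main differences or with a shared location are shown to give their local sequence. G0s2, Plin2 and Plin4 are those at or near 2-fold at 6 weeks, and Plin5 is the gene next to Plin4. Each line holds the 250 bases before the RefSeq start, 5′ to 3′ on the gene's own strand, from the build GRCm38.p6. All 4 genes lie on the minus strand, and capitals mark the motif matches described after them.
Plin2, chr4:86670060-86670309: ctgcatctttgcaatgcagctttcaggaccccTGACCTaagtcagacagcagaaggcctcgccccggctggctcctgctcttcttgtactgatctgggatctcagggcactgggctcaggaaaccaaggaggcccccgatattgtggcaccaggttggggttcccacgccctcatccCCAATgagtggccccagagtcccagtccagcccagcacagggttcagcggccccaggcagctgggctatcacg
G0s2, chr1:193273189-193273438: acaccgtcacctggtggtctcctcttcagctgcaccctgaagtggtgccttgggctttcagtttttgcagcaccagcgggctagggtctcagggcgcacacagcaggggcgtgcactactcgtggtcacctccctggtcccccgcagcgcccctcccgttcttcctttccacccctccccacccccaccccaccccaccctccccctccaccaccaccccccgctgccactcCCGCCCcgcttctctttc
Plin4, chr17:56109783-56110032: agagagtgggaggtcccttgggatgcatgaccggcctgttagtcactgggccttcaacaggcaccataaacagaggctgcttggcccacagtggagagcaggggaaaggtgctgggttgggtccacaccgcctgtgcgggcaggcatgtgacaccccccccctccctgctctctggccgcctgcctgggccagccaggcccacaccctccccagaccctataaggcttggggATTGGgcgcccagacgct
Plin5, chr17:56117549-56117798: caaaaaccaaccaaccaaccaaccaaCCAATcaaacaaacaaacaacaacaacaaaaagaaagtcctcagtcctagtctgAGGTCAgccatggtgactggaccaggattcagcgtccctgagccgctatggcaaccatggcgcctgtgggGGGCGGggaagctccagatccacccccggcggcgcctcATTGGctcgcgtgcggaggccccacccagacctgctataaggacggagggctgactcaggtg

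RefSeq promoters of 7 of the 8 members were searched, in 9 windows, and Cidea was left out. On both strands 8 motifs were searched. They were the half-site AGGTCA of nuclear receptors, the direct repeat bound by PPAR and RXR (the half-site repeated after 1 base), the glucocorticoid palindrome (GNACA and, 3 bases on, TGTNC), the E-box CACGTG, the PAR bZIP site TTATGTAA, the TATA box TATAAA, the CCAAT box and the GC box GGGCGG. The half-site lies within the direct repeat. The Plin2 window holds 1 half-site on the opposite strand and 1 CCAAT box. That of Plin5 holds 1 half-site, 2 CCAAT boxes, 1 of them on the opposite strand, and 1 GC box. Plin5 has another window, chr17:56117299-56117548, not printed here, with GC boxes as its only matches and a GC content of 70.0%. The G0s2 window holds 1 GC box and the Plin4 window 1 CCAAT box, both on the opposite strand. Of the other windows not printed, that of Cideb holds 1 TATA box and 1 GC box, and that of Plin3 1 CCAAT box and GC boxes. Those of Cidec hold no match. No searched window holds the direct repeat, the glucocorticoid palindrome, the E-box or the PAR bZIP site. Of 32851 mouse promoter windows of this length, 14% hold the half-site, 33.8% the CCAAT box, 32.7% the GC box and 0.0335% the full direct repeat. The share with the glucocorticoid palindrome is 0.387%, with the E-box 6.02%, with the PAR bZIP site 0.819% and with the TATA box 12.4%. The GC content of the printed windows is 61.6% for Plin2, 67.2% for G0s2, 65.2% for Plin4 and 58.0% for Plin5, against a median of 52.4% over all windows. These matches describe letters in a short window and no binding.

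Signals are given as processed intensity divided by the 75th percentile of the same array, so 1 is the brightness of a probe at that percentile. A signal can be set against the same probe on another array, but not against another gene's probe. Between 28714 and 30697 of 43020 spots per array were well above background, and no spot was saturated. All 10 probes of the members were well above background on all 4 arrays and carried no outlier flag. The scanner software's own error was 10% for Plin2, Plin3, Plin4, Plin5, Cideb and G0s2, and up to 14.11% for Cidea and Cidec. An error of 10% on both arrays gives an SD of 0.204 for a log2 ratio. Across 274 probes printed 10 times on each array, the typical SD of a log2 KO over WT ratio from spot to spot was smaller, 0.117 at 6 weeks and 0.0927 at 3 weeks. Both cover the array measurement and not the variation between mice. Hepatocyte markers, 10 genes, were well above background on every array, and their summed signal was 1936 in KO and 1699 in WT at 6 weeks and 1724 in KO and 1734 in WT at 3 weeks.

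**Figure D1:**
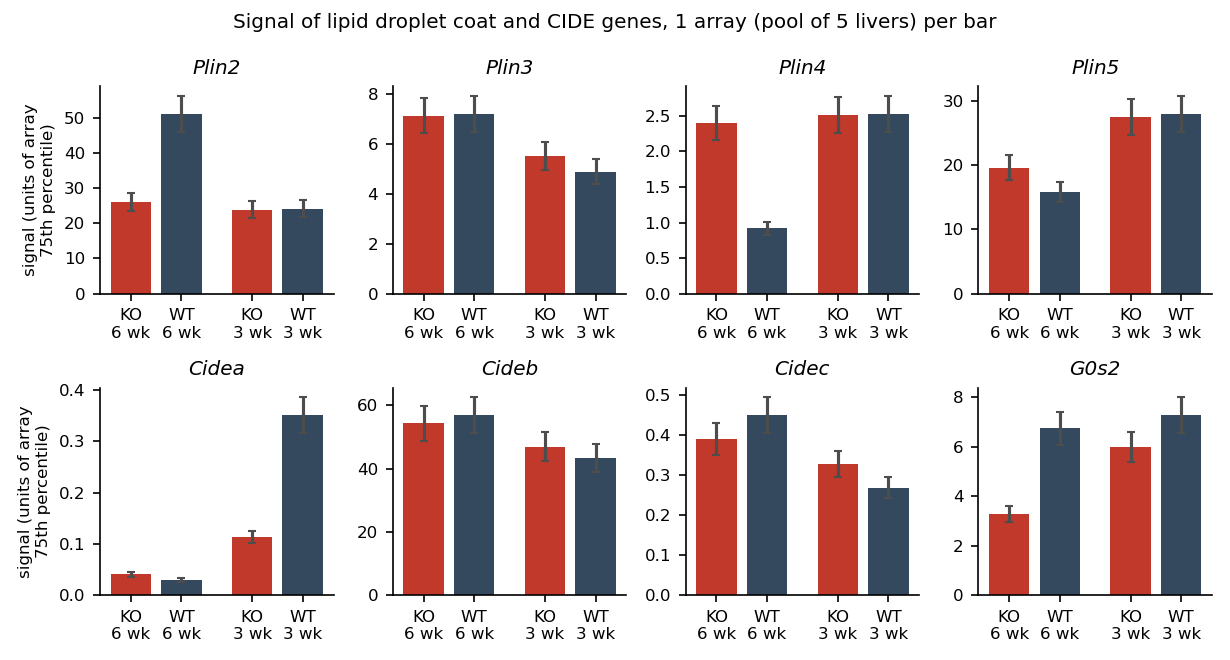
Signal of the brightest probe of each member on the 4 arrays (y axis, 1 = the array's 75th percentile), with KO in red and WT in dark blue, 6 weeks at the left and 3 weeks at the right of each panel. Each bar is 1 array of 5 pooled livers, its error bar is the scanner software's model error, and Plin2 on the WT array of 6 weeks (51.1) and Plin4 on the same array (0.916) stand apart from the other 3 bars of their panels.

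The probe of Pnpla7, which spans chr2:24908961-24909192 in mm9, read 4.42 in KO and 9.65 in WT at 6 weeks, and 6.70 in KO and 7.54 in WT at 3 weeks. Its log2 KO over WT ratios were -1.13 at 6 weeks and -0.17 at 3 weeks. The deleted part of the gene is not given, so the probe cannot be placed inside or outside it and its signal does not check the labels. KO below means the array labelled KO.

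Plin2 (probe at chr4:86302847-86302906, mm9) gave a signal of 25.9 in KO and 51.1 in WT at 6 weeks, and of 23.8 in KO and 24.1 in WT at 3 weeks. On the log2 scale KO over WT was -0.98 at 6 weeks and -0.02 at 3 weeks. The WT array of 6 weeks was the high one, and the other 3 lay between 23.8 and 25.9. Accordingly the 6 over 3 weeks log2 ratio was 1.08 in WT, at least 2-fold higher at 6 weeks, and 0.12 in KO.

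The Plin2 ratio at 6 weeks was close to the 2-fold line rather than past it, and its call depends on the scaling. With quantile scaling it was -1.16, and with normexp background correction and quantile scaling -1.15, both at least 2-fold lower in KO. Among 8187 genes whose mean signal was at or above the 75th percentile, 1.77% had a ratio at 6 weeks as low as that of Plin2, and among all genes with a usable ratio 4.73% did.

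Plin4 (chr17:56240055-56240114, mm9) had the opposite form. Its signal was 2.39 in KO and 0.916 in WT at 6 weeks, against 2.52 in KO and 2.53 in WT at 3 weeks. The low array was again WT at 6 weeks, and the other 3 lay between 2.39 and 2.53. On the log2 scale KO over WT was 1.39 at 6 weeks and -0.01 at 3 weeks, and the 6 over 3 weeks ratio was -1.47 in WT and -0.07 in KO.

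Among the same 8187 bright genes, 0.684% had a 6-week KO over WT ratio as high as that of Plin4, and among all genes with a usable ratio 3.38% did. The ratio was 1.35 to 1.39 over the scalings, background corrections and probe rules tried. Plin2 and Plin4 both set their 6-week KO over WT ratio and their WT age ratio on the same WT array, so these are not separate observations.

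Plin5 (chr17:56251025-56251084, mm9) was measured 10910 bases from the Plin4 probe. Its signal was 19.6 in KO and 15.9 in WT at 6 weeks, and 27.6 in KO and 28.0 in WT at 3 weeks. Both 6-week arrays were below both 3-week arrays, and the KO and WT arrays of each age lay within 2 SDs of the scanner software's error of each other. Its KO over WT log2 ratio was 0.31 at 6 weeks, 0.16 with normexp and quantile scaling, and -0.02 at 3 weeks. The 6 over 3 weeks ratio was -0.49 in KO and -0.82 in WT.

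Plin3 (chr17:56418429-56418488, mm9) lies on the same chromosome, its probe 178314 bases from that of Plin4. Its signal was 7.15 in KO and 7.21 in WT at 6 weeks, and 5.53 in KO and 4.89 in WT at 3 weeks. Both 6-week arrays were the higher ones, with log2 6 over 3 weeks ratios of 0.37 in KO and 0.56 in WT. Between genotypes the log2 ratio was -0.01 at 6 weeks and 0.18 at 3 weeks, both smaller than the 0.204 of the scanner error. No neighbours in the order of the 4 arrays were more than 2 such SDs apart.

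Of the 3 perilipins on chromosome 17, Plin4 alone was more than 2 SDs of the scanner error from no KO and WT difference at 6 weeks. Of the protein-coding neighbours by RefSeq gene order, Hdgfl2, on the other side of Plin4, had log2 KO over WT ratios of 0.22 at 6 weeks and -0.03 at 3 weeks. Lrg1, which encodes a secreted acute-phase glycoprotein and lies on the other side of Plin5, had signals of 66.8 in KO and 32.0 in WT at 6 weeks, and of 37.8 in KO and 37.0 in WT at 3 weeks. Its 6-week ratio of 1.06 was past 2-fold in the direction of Plin4, with Plin5 between them at 0.31. Here KO at 6 weeks was the array that stood apart, where for Plin4 it was WT.

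Cidea (chr18:67527351-67527410, mm9), which drives droplet growth in brown fat and in the fatty liver, was dim on every array. Its signal was 0.0403 in KO and 0.0289 in WT at 6 weeks, and 0.114 in KO and 0.351 in WT at 3 weeks. Both 3-week arrays were above both 6-week arrays, and WT at 3 weeks was the highest. Its log2 KO over WT ratio was 0.48 at 6 weeks, 0.16 with normexp and quantile scaling, and -1.63 at 3 weeks. The software's SD of these ratios was 0.269 and 0.207, so the 6-week arrays were within 2 SDs of each other and the 3-week arrays were not.

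The 6 over 3 weeks log2 ratio of Cidea was -1.50 in KO and -3.60 in WT. The difference between the ages in its log2 KO over WT ratio was 2.10, the 1 member past 4-fold. Of 18854 genes measured above background on every array, 0.838% had a difference past 4-fold in the same direction and 1.52% in either. With normexp and quantile scaling the difference was 1.46, below 4-fold, and the 3-week ratio ranged from -1.66 to -1.30 over the settings tried.

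Cidea is also a marker gene of brown fat, and the fat markers differed between the arrays. Ucp1, the uncoupling protein of brown fat, had a signal of 0.178 in KO and 0.206 in WT at 6 weeks, and of 0.0454 in KO and 0.287 in WT at 3 weeks. At 3 weeks its log2 KO over WT ratio was thus -2.66, lower in KO like Cidea. The other 5 brown fat markers with a usable ratio were above 0. They were Cox8b at 3.41, Cpt1b at 1.60 and, named after their values were seen, Otop1 at 0.59, Elovl3 at 0.22 and Ppargc1b at 0.20. Muscle markers, given below, were also higher in KO, and the part of muscle RNA in these ratios was not tested. The brown fat list's median log2 ratio was 0.40 at 3 weeks and 0.33 at 6 weeks. The summed signal of all 7 brown fat markers was 1.71 in KO and 0.514 in WT at 6 weeks and 2.73 in KO and 0.874 in WT at 3 weeks. Of these 7, 7 and 6 were well above background at 6 weeks in KO and WT, and 6 in each at 3 weeks.

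Within that sum, Cox8b, a cytochrome oxidase subunit of brown fat and muscle, gave 1.23 in KO and 0.0262 in WT at 6 weeks, and 2.04 in KO and 0.193 in WT at 3 weeks. Without Cox8b the other 6 summed to 0.477 in KO and 0.487 in WT at 6 weeks, and to 0.686 in KO and 0.682 in WT at 3 weeks, so the genotype difference of the full sum was that of Cox8b. White fat markers, 9 genes, summed to 3.05 in KO and 2.79 in WT at 6 weeks and to 9.07 in KO and 5.80 in WT at 3 weeks. Most of that sum was Fabp4, at 2.34 in KO and 2.17 in WT at 6 weeks and 8.08 in KO and 4.99 in WT at 3 weeks. The median log2 KO over WT ratio of the white fat list was 0.20 at 6 weeks and 0.07 at 3 weeks. At 3 weeks its markers lay on both sides of 0, from -0.74 for Plin1 to 0.71 for Retn. Of the 9 genes, 7 were well above background on each array, while Lep, the fat cell hormone leptin, and Acvr1c were not on any. Plin1 read 0.0215 in KO and 0.0140 in WT at 6 weeks, and 0.0200 in KO and 0.0334 in WT at 3 weeks. The part of fat tissue in the Cidea signal was not tested. In whole liver, fewer cells of a type and less RNA per cell cannot be told apart.

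Cideb, the CIDE form of the normal hepatocyte, differed little between KO and WT. Its brighter probe (chr14:56372942-56373001, mm9) read 54.3 in KO and 56.8 in WT at 6 weeks, and 47.0 in KO and 43.4 in WT at 3 weeks. The log2 KO over WT ratio was -0.07 at 6 weeks and 0.11 at 3 weeks. The second probe read 7.40 in KO and 7.66 in WT at 6 weeks, and 6.53 in KO and 6.36 in WT at 3 weeks. Its ratios of -0.05 and 0.04 had the same signs as those of the first, and none of the 4 ratios was larger than the scanner error. With quantile scaling the 6-week ratio of the brighter probe was -0.27. The 6 over 3 weeks log2 ratio of the brighter probe was 0.21 in KO and 0.39 in WT.

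Cidec, which joins droplets into large ones in fat and in steatotic liver, had a brighter probe at chr6:113374630-113374689 (mm9). It read 0.391 in KO and 0.45 in WT at 6 weeks, and 0.329 in KO and 0.269 in WT at 3 weeks. The KO array was thus the lower at 6 weeks and the higher at 3 weeks, with log2 ratios of -0.20 and 0.29. The second probe gave 0.0508 in KO and 0.0586 in WT at 6 weeks, and 0.0470 in KO and 0.0446 in WT at 3 weeks. Its ratios of -0.20 and 0.08 had the same signs but a smaller size at 3 weeks. No neighbours in the order of the brighter probe's 4 arrays were more than 2 SDs of the software's error apart.

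G0s2 (chr1:195098925-195098984, mm9) gave a signal of 3.27 in KO and 6.75 in WT at 6 weeks, and of 5.99 in KO and 7.27 in WT at 3 weeks. KO at 6 weeks was the low array, 0.87 below the next on the log2 scale, and WT was the higher array at both ages. KO over WT was -1.04 at 6 weeks and -0.28 at 3 weeks on the log2 scale, the latter within 2 SDs of the scanner software's error. The 6 over 3 weeks ratio was -0.87 in KO and -0.11 in WT.

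Among the 8187 bright genes, 1.56% had a 6-week ratio as low as that of G0s2, and among all genes with a usable ratio 4.25% did. Its 6-week ratio stayed between -1.07 and -1.03 over the settings tried. Pnpla2, the lipase that G0s2 inhibits and named here for that reason, had signals of 12.1 in KO and 6.98 in WT at 6 weeks, and of 8.36 in KO and 6.17 in WT at 3 weeks. KO was thus the higher array for the lipase at both ages, with log2 ratios for Pnpla2 of 0.80 and 0.44, under 2-fold. For its inhibitor KO was the lower array, at 3 weeks by less than 2 SDs of the scanner software's error.

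**Figure D2:**
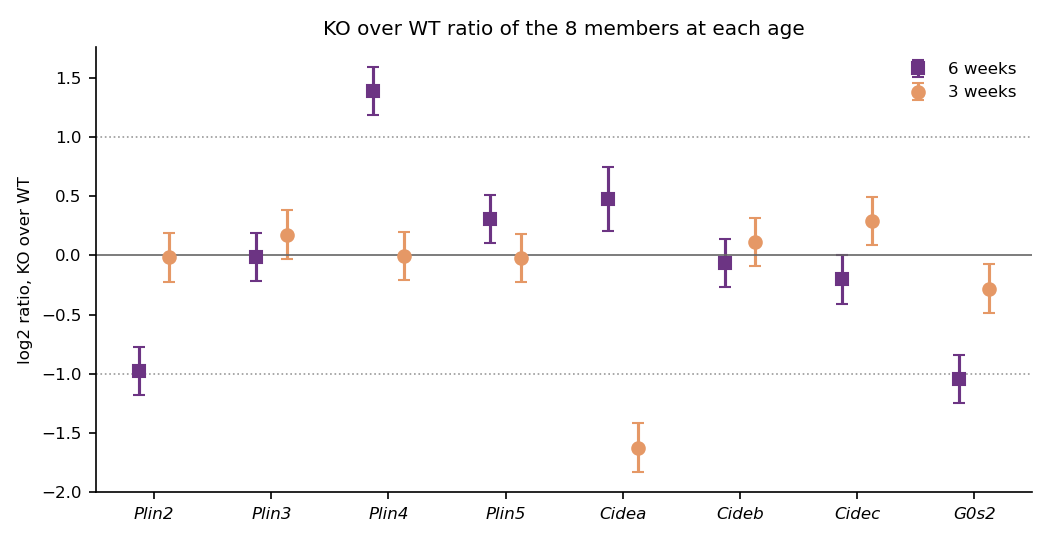
Log2 KO over WT ratio of each member at 6 weeks (purple squares) and 3 weeks (orange circles), 1 array per group, with the SD from the scanner software's model error as bars and 2-fold as dotted lines. At 6 weeks Plin4 (1.39) and G0s2 (-1.04) are past the lines and Plin2 (-0.98) touches one, while at 3 weeks Cidea (-1.63) alone is past them.

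Counted over the members at 6 weeks, 1 of 8 was at least 2-fold higher in KO, Plin4, and 1 at least 2-fold lower, G0s2. Of all 21374 genes with a usable ratio, 6.11% were higher by that much and 4.54% lower, 10.7% in all. A count of 2 among 8 genes is too small to set the members apart from that share. The members' median log2 ratio was -0.04, against 0.05 over the 19386 genes well above background on both arrays. The members' median absolute log2 ratio was 0.392, against 0.239 over those genes.

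At 3 weeks 0 of 8 members were at least 2-fold higher in KO and 1 was lower, Cidea. Over 21749 genes, 2.86% were higher and 2.9% lower by that much, 5.76% in all. The members' median log2 ratio was -0.01, and that over the 19567 genes well above background on both arrays was also -0.01. The median absolute log2 ratio was 0.146 for the members and 0.117 for those genes.

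With age in KO, 0 members were at least 2-fold higher at 6 than at 3 weeks and 1 was lower, Cidea, where 6.02% and 6.26% of 21962 genes were, 12.3% in all. With age in WT, 1 was higher, Plin2, and 2 were lower, Plin4 and Cidea, where 3.64% and 5.46% of 21157 genes were, 9.11% in all. The median absolute log2 ratio of the members with age was 0.309 in KO, against 0.291 over 19667 genes well above background on both arrays. In WT it was 0.783, against 0.211 over 19290 such genes. These age comparisons use the same 4 arrays as the KO and WT comparisons and are given beside them, not as further evidence.

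**Figure D3:**
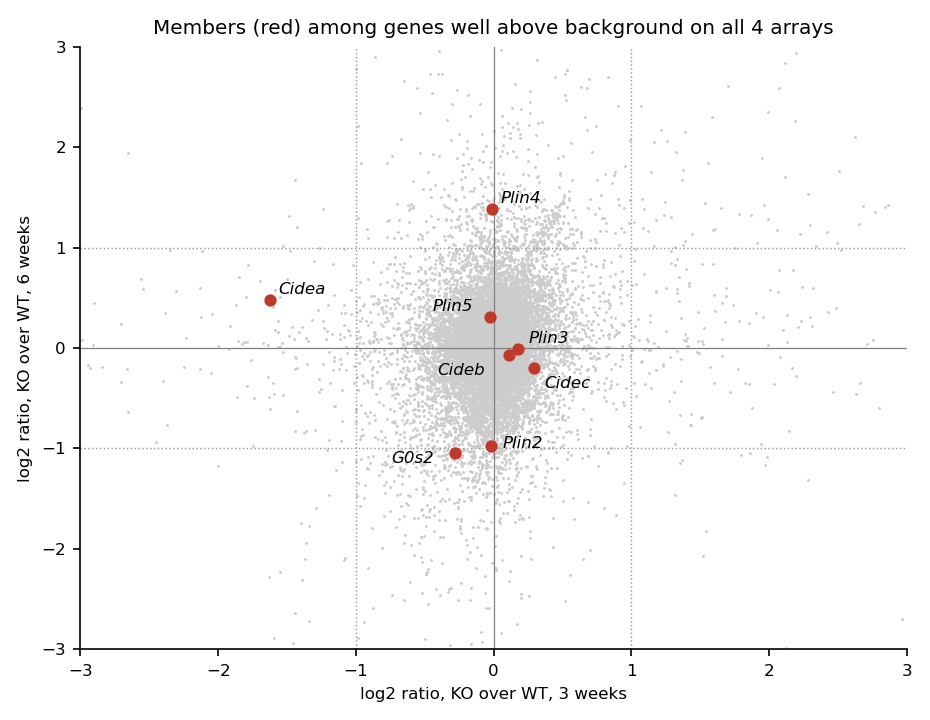
Log2 KO over WT ratio at 3 weeks (x axis) and at 6 weeks (y axis) for the 18854 genes measured above background on every array (grey points, 98 beyond the axes not drawn), with the 8 members in red and 2-fold as dotted lines. Plin2, Plin4 and Plin5 lie on the vertical line of no difference at 3 weeks and spread along the 6-week axis, and Cidea lies far to the left.

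A single fit over all 22637 genes above background on at least 1 array, with genotype and age as terms (limma, 1 residual degree of freedom), called 0 genes higher and 0 lower in KO at an adjusted p under 0.05. The smallest adjusted p was 0.468, and 1007 genes, 4.45%, had an unadjusted p under 0.05. When the variance prior followed the signal, limma called 4 genes higher and 0 lower. This fit averages the KO over WT ratio over the ages. Its 1 residual degree of freedom is the difference of that ratio between the ages. A gene whose ratio differs between the ages thus gets a larger SE and a larger p. No group had a second array, so the SE holds no measured spread between pools or mice. The p does not test the ratio at either age alone.

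In that fit Plin4 had a log2 KO over WT ratio of 0.69 ± 0.462 (SE, limma adjusted p = 0.914). G0s2 had -0.66 ± 0.280 (SE, limma adjusted p = 0.914), and Plin2 -0.50 ± 0.335 (SE, limma adjusted p = 0.914). The adjusted p of Cidea was 0.918 in limma, and those of Plin3, Plin5, Cideb and Cidec were 0.920 to 0.980. With age, limma likewise called 0 genes, 2305 having an unadjusted p under 0.05, and Plin5 and Cidea had an adjusted p of 0.487 with log2 6 over 3 weeks ratios of -0.66 and -2.55.

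Genes that work with the coat proteins were read from lists, and their KO over WT ratios are given beside the members'. Of all genes with a usable ratio, 6.11% were at least 2-fold higher in KO and 4.54% lower at 6 weeks. At 3 weeks 2.86% and 2.9% were. A count of 1 or 2 in such a list is too small to set it apart from these shares. Of 14 genes of droplet formation, 1 was at least 2-fold higher in KO at 6 weeks and none at 3 weeks, with a median log2 ratio of 0.09 and -0.08. The 1 was Lpin1, the phosphatidate phosphatase lipin, with signals of 12.2 in KO and 4.31 in WT at 6 weeks and of 8.0 in KO and 7.97 in WT at 3 weeks. As for Plin4, its KO and WT arrays were alike at 3 weeks and apart at 6 weeks. Mogat1, a monoacylglycerol acyltransferase, had log2 KO over WT ratios of -0.60 and -0.30 at these ages, and Gpam, the first enzyme of glycerolipid synthesis, -0.28 and -0.53.

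Of 13 genes of droplet lipolysis and lipophagy, which include Pnpla2, 1 was at least 2-fold lower in KO at 6 weeks, Pnpla3 at -2.10, and 2 at 3 weeks, Pnpla3 at -1.37 and Ces1g at -1.11. At 6 weeks Ces1g was at 0.35, the opposite sign. Pnpla3 encodes a droplet-bound patatin-like protein, and Ces1g a liver carboxylesterase. Ces1f, another carboxylesterase, was at -0.91 at 6 weeks and -0.61 at 3 weeks. The list's median was -0.15 at 6 weeks and -0.10 at 3 weeks. Of 12 other droplet-bound enzymes, 1 was at least 2-fold lower in KO at 6 weeks and 1 at least 2-fold higher at 3 weeks, with medians of 0.15 and 0.03. Both were Dhrs9, named after its values were seen, at -1.80 at 6 weeks and at least 1.07 at 3 weeks. The 3-week value is a bound, set against its own WT signal of 0.0167, which was not well above background. Methig1 was at -0.62 and 0.33, the acyl-CoA synthetase Acsl4 at 0.44 and 0.48, and Hsd17b7, of cholesterol synthesis, at 0.63 and 0.25.

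Plin2, Plin4, Plin5, Cidea, Cidec and G0s2 are known targets of PPAR receptors in mouse liver or fat, and the other genes of those pathways were counted too. Of 22 PPAR-alpha targets and fasting genes, 4 reached 2-fold at 6 weeks, all of them lower in KO, and the list's median was -0.23. None reached it either way at 3 weeks, with a median of -0.01. Genes with a 6-week log2 KO over WT ratio above 0, named after their values were seen, were Cpt1a (0.56), Ppara (0.45) and Cyp4a10 (0.45). Cyp4a14 (0.38), Acadm (0.18), Acadl (0.07) and Angptl4 (0.05) were also above 0, and the rest of the list was below 0. Fgf21, the fasting hormone, had signals of 0.467 in KO and 1.82 in WT at 6 weeks, and of 0.650 in KO and 0.744 in WT at 3 weeks. Ehhadh, an enzyme of peroxisomal fatty acid oxidation, had 13.4 in KO and 33.4 in WT at 6 weeks, and 13.7 in KO and 15.2 in WT at 3 weeks. For both, as for Plin2, WT at 6 weeks was the high array and the other 3 were lower.

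Acaa1b, a peroxisomal thiolase, and Acot1, a thioesterase chosen for naming after its value was seen, were the other 2, at -1.06 and -1.30 on the log2 scale. With age in WT, 4 of the 22 were at least 2-fold higher at 6 weeks, Fgf21, Ehhadh, Acot1 and, also named after its value was seen, Vnn1, by 1.29, 1.13, 1.26 and 1.09. With age in KO none were. Over all genes with a usable ratio, 3.64% were higher by that much with age in WT and 6.02% in KO.

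Of 10 PPAR-gamma steatosis genes, 1 was at least 2-fold higher in KO at 6 weeks, the lipoprotein receptor Vldlr at 1.27, and none at 3 weeks, with medians of 0.15 and 0.05. Lpl, lipoprotein lipase, was at 0.81 and 0.67, and the desaturase Scd1, which the lipogenic list also holds, at -0.84 and -0.71. Of 12 lipogenic regulators and targets, 2 were at least 2-fold lower in KO at 6 weeks, Me1, malic enzyme, at -1.21 and Acly, ATP citrate lyase, at -1.08, and none at 3 weeks. The lipogenic median was -0.56 at 6 weeks and -0.43 at 3 weeks, the largest shift of these lists at both ages.

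**Figure D4:**
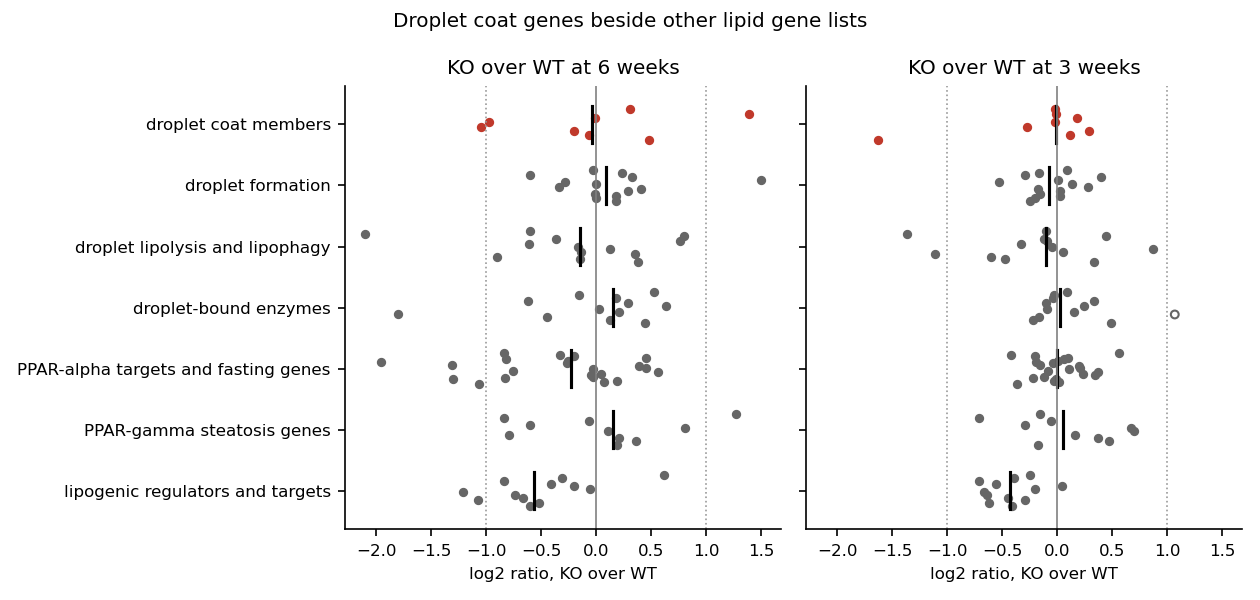
Log2 KO over WT ratio of every gene of the members (red) and of 6 lists (grey) at 6 weeks (left) and 3 weeks (right), with black lines for medians, dotted lines for 2-fold and an open circle for a bound. The members' medians of -0.04 and -0.01 sit at 0 with genes on both sides at 6 weeks, and the lipogenic list's medians of -0.56 and -0.43 lie furthest below 0.

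Muscle genes differed between the KO and WT arrays. The summed signal of 16 muscle markers was 44.1 in KO and 1.45 in WT at 6 weeks, and 70.5 in KO and 0.697 in WT at 3 weeks, with 16 and 10 of them well above background at 6 weeks and 16 and 6 at 3 weeks. Plin4 and Plin5 are also expressed in muscle, and the part of muscle RNA in their signals was not tested. Macrophage markers summed to 32.7 in KO and 58.7 in WT at 6 weeks, and to 63.9 in KO and 68.2 in WT at 3 weeks. Stellate cell markers summed to 53.2 in KO and 55.9 in WT at 6 weeks, and to 86.8 in KO and 74.8 in WT at 3 weeks, most of it from Dcn, decorin. Without Dcn the other 9 summed to 7.01 in KO and 11.4 in WT at 6 weeks, and to 32.3 in KO and 28.8 in WT at 3 weeks. At 6 weeks 8 of the 10 stellate markers were below 0 on the log2 KO over WT scale, with a median of -0.51, and so were 9 of 10 macrophage markers, with a median of -0.82. The part of the macrophage and stellate differences in the 6-week ratios of G0s2 and Plin2 was not tested.

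The genes whose pattern over the 4 arrays was most like a member's were sought among 13942 genes, by the root mean square difference of their centred log2 signals. For Plin4 they were Msmo1 (0.0820), Cyp39a1 (0.0884) and Adora1 (0.107). Msmo1, a sterol oxidase of cholesterol synthesis, gave 29.3 in KO and 9.77 in WT at 6 weeks, and 28.1 in KO and 26.9 in WT at 3 weeks, with WT at 6 weeks again the low array. For G0s2 they were Cldn1 (0.0277), Nrg1 (0.0303) and Ccn1 (0.0338). Cldn1, a tight junction claudin, gave 0.263 in KO and 0.553 in WT at 6 weeks, and 0.470 in KO and 0.60 in WT at 3 weeks. For Cidea the nearest were further off, Zdhhc22 (0.351), Ltf (0.419) and Atp8a2 (0.442). With 4 arrays and 13942 genes a close profile is a description of these arrays.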

How the data were processed

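Each of the 4 samples was 1 array. The deposited intensity values are scanner output; the submitters' processing notes name Agilent Feature Extraction, version 11.5.1.1, and per the file headers a fitted spatial surface was subtracted as background, a multiplicative trend was removed, and arrays were not scaled to each other. The deposited flag columns mark spots well above background, outliers and control spots. The authors' deposited value table held that intensity over the 75th percentile of its array, with column medians of 0.0815 (KO, 3 weeks), 0.0797 (WT, 3 weeks), 0.0798 (KO, 6 weeks) and 0.0778 (WT, 6 weeks) over all its rows; its scale was found by setting it against the scanner values.

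From these files, control and outlier spots were left out, spots of a probe averaged, intensity divided by the array's 75th percentile, and log2 taken. A gene took its brightest probe. Of 39429 probes, 27508 were named by accession, 3544 by symbol and 404 by synonym through the RefSeq table, and 7973 kept the file's name. A gene not well above background on 1 array gave a bound, set against the lowest signal well above background there. With 1 array per group, calls are ratios of at least 2-fold. The difference between ages was called at 4-fold. Genotype and age were fitted across all genes with limma 3.58.1 in R 4.3.3, on genes well above background on at least 1 array, with Benjamini-Hochberg adjustment; the scripts were tested on simulated data. Named genes were the members, Pnpla7, the 3 genes per list with the largest mean absolute KO over WT log2 ratio among those above background on every array, and the 3 nearest profiles for each of the 3 members with the widest range over the arrays; others are marked where named.

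Alternatives were normexp (offset 50) with quantile scaling, quantile or median scaling, a gene's mean over its probes, keeping outlier spots, the authors' value table, stricter and no background filters, other folds, and limma with a variance trend or with genotype as its sole term. The members and lists were chosen with earlier results of these data known. The number of arrays limits the precision. Probe positions are in mm9, from the files; promoter sequences are RefSeq's on GRCm38.p6.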

Additional observations from a re-analysis of the deposited data

Results flagged for a closer look

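Cidea and Cidec were the members whose KO over WT ratio had opposite signs at the 2 ages, each larger than 1 SD of the spot-to-spot spread. With 1 array per group the difference between the ages was not tested. For Cidea the log2 KO over WT ratio was 0.48 at 6 weeks and -1.63 at 3 weeks. The 6-week ratio rests on signals of 0.0403 in KO and 0.0289 in WT, which lie within 2 SDs of the scanner software's error of each other. For Cidec the ratio was -0.20 at 6 weeks and 0.29 at 3 weeks, and its second, dimmer probe gave -0.20 and 0.08. The scanner software's SD of the brighter probe's ratio was 0.205 at both ages. Against it the 6-week ratio was smaller than 1 SD and the 3-week ratio smaller than 2 SDs.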

How the results depend on the processing

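No paired analysis was possible because each group has 1 array and no replicate numbers; the limma fit with age as a term compares KO with WT within age, and without that term it also called 0 genes, 703 having an unadjusted p under 0.05. Among members, counts at 6 weeks of at least 2-fold higher in KO became 0 at 3-fold. Counts lower in KO became 2 with quantile scaling, 2 with normexp and quantile scaling, 2 at 1.5-fold and 0 at 3-fold, the added gene being Plin2. With age in WT, the count higher became 2 at 1.5-fold and 0 at 3-fold, and the count lower 3 at 1.5-fold, where Plin5 joined, and 1 at 3-fold. With age in KO, the count lower became 2 at 1.5-fold, 0 at 3-fold and 0 with normexp and quantile scaling, where the Cidea ratio was -0.86. The count of members past 4-fold in the difference between ages became 0 with normexp and quantile scaling, where Cidea was at 1.46, 2 at the square of 1.5-fold, where Plin4 joined, and 0 at 9-fold. The limma count of genes higher in KO became 4 with a variance trend. The causes of the changes under other scalings were not tested; those at other folds follow from the fold. No member's ratio past the fold changed sign under the alternatives run. With no background filter the median of all genes at 6 weeks was 0.14. Signals near background, as for Cidea at 6 weeks, limit what a ratio can show, and without a second array no spread between pools is known.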
